A study of Ovis aries with 20 samples.

Results

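The 54 genes described here carry out or control the cell cycle: 21 act at the start and during S phase, when DNA is copied, and 33 act in mitosis, when the copied chromosomes are separated. They were taken by symbol from a list chosen for these roles, with earlier results of these data known. All 54 were in the count tables of 24478 genes. All 54 also passed the filter on low counts that left 20097 genes for testing. RNA sequencing had been done on tracheal epithelial tissue of sheep (Ovis aries), the windpipe lining, from healthy donors (WT) and from donors labelled CF, for cystic fibrosis. Both genotypes were sampled at days 65, 80, 100 and 120 and at day 147, which is labelled birth, with 2 samples in each of the 10 groups. The labels name no allele, treatment or strain, and whether the samples of a group came from separate animals is not stated.

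Both WT libraries of day 100 carry one sample identifier, as do both CF libraries of day 147, and WT day 65 replicate 2 shares its identifier with CF day 100 replicate 2. Both same-group pairs were kept as 2 samples, since they differed in other tissue: summed smooth muscle genes were 1507 and 73.7 CPM in the WT pair, and summed fat cell genes 222 and 2510 CPM in the CF pair. The p-values below therefore reflect how these particular samples varied, and part of that may be technical. Total counts per library ran from 42372433 to 87651829, and the least-counted member, E2F1, had 35 counts in its lowest library. The tissue label was checked against 12 epithelial genes (among them EPCAM, CDH1 and KRT8), none of which was at 0 in any library. Their summed level ran from 890 to 5390 CPM (counts scaled to the size of the library), and that of 10 fibroblast genes ran from 4463 to 48649 CPM, so the pieces also held RNA of connective tissue. High levels of genes of other organs were found in 4 libraries. WT day 65 replicate 2 had thymus and skeletal muscle genes, WT day 80 replicate 2 thymus and thyroid genes, CF day 65 replicate 2 liver and red blood cell genes, and CF day 80 replicate 1 skeletal muscle genes. Thyroid genes summed to 110433 CPM in WT day 80 replicate 2, and skeletal muscle genes to 32405 CPM in CF day 80 replicate 1. Liver genes summed to 19990 CPM in CF day 65 replicate 2.

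A cell that is going to divide first loads the MCM helicase onto origins of replication, a step that needs CDC6 and CDT1. E2F transcription factors then switch on the genes for DNA synthesis. Genes of mitosis are switched on later, in large part by the MuvB complex together with MYBL2 and FOXM1. In cells that leave the cycle, both sets are repressed, so their messages fall as a growing tissue matures. In airways a further use is known: a cell that becomes multiciliated stops dividing but turns on part of the mitotic machinery while it builds many centrioles, under the regulators GMNC and MCIDAS. Since whole tissue was sequenced, fewer dividing cells and less message per cell cannot be told apart.

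From day 65 to birth the cell cycle genes fell in both genotypes. In WT, 34 of the 54 were lower at birth and none was higher, by edgeR's quasi-likelihood test with Benjamini-Hochberg adjustment over all 20097 genes at a threshold of 0.05; of all genes tested, 4.53% were called lower and 3.7% higher. In CF, 44 were lower and none was higher, beside 3.71% of all genes called lower and 1.78% called higher. With both pairs that share an identifier (CF at birth and WT day 100) each summed to 1 sample, 29 members were called in WT and 15 in CF. Without the 4 libraries with genes of other organs, 24 were called in WT and 35 in CF. The WT count was 22 without WT day 65 replicate 2 or WT day 147 replicate 2, and 0 with only the 4 libraries of this comparison in the fit. The shares of all genes called in these other fits are not given, so a lower count there cannot be told from fewer calls among all genes. In the main fit the median log2 fold change of the S-phase members was -1.41 in WT and -1.57 in CF. For the mitosis members it was -1.61 in WT and -2.54 in CF, while over all tested genes it was -0.02 and -0.01. The 33 members called in both genotypes were 13 of the 21 S-phase and 20 of the 33 mitosis genes. BUB1B was called in WT and not in CF, 11 members in CF and not in WT, and 9 in neither. These sets come from separate tests, and the difference between the genotypes was tested on its own, as given further on.

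**Figure D1:**
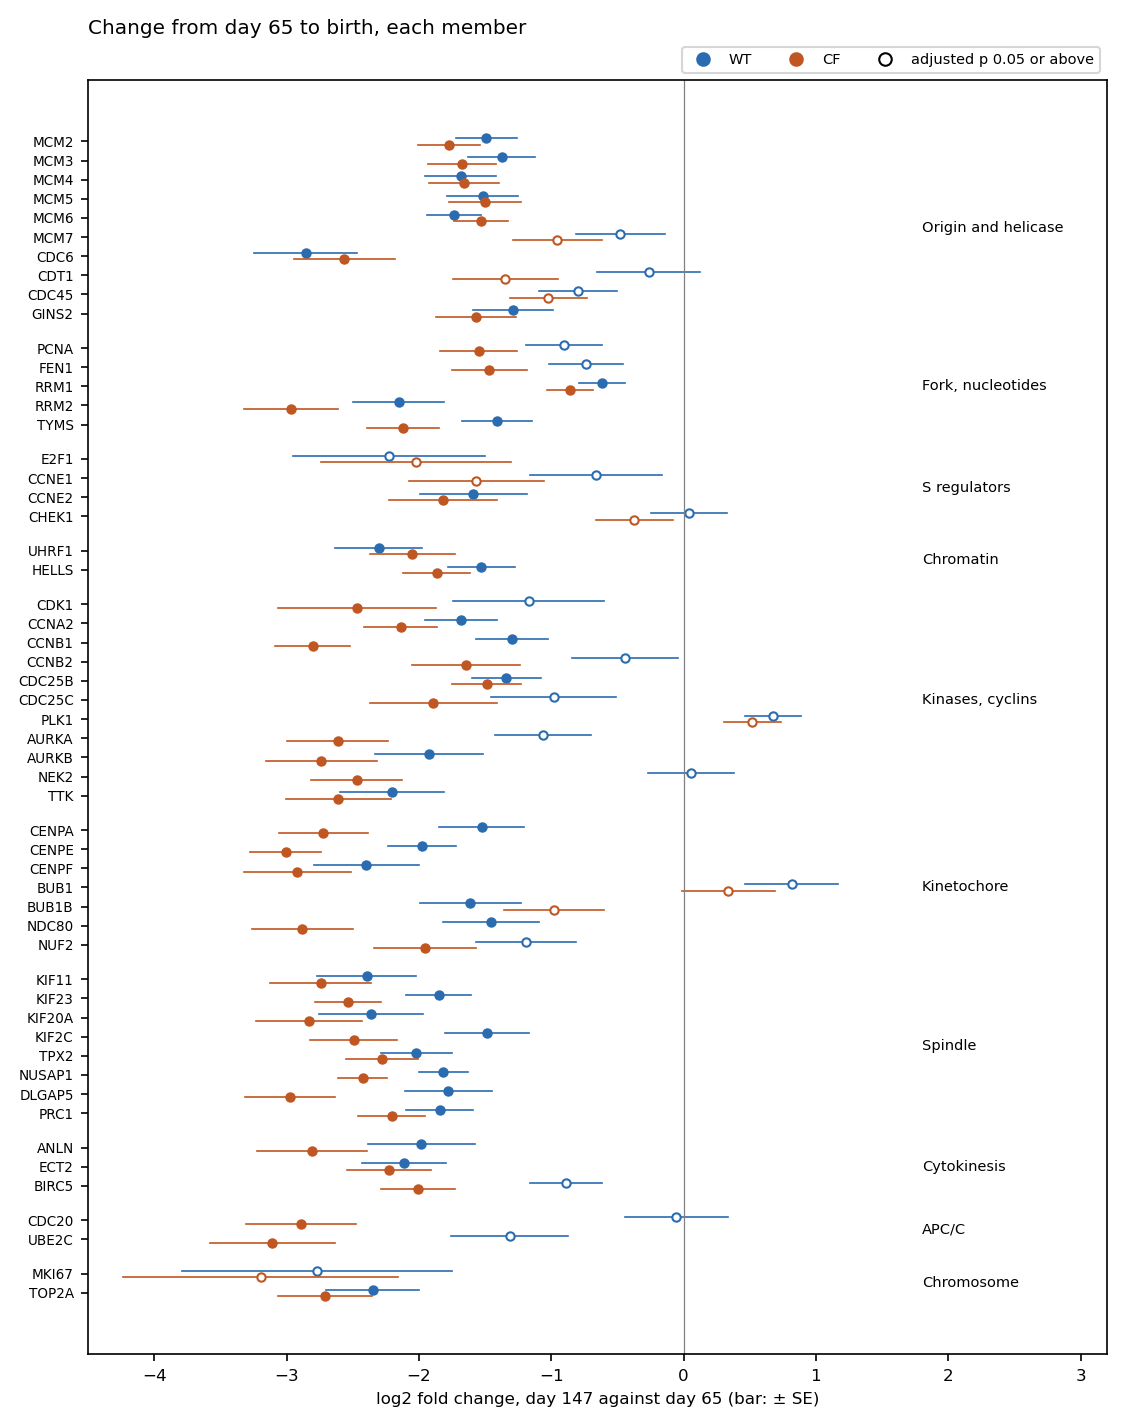
Each member's log2 fold change from day 65 to day 147 (horizontal axis) in WT (blue) and CF (orange), by role; bars are ± 1 SE and open points have an adjusted p of 0.05 or above. Nearly all points lie left of 0, PLK1 and BUB1 lie right of it in both genotypes, and NEK2 and CDC20 lie near 0 in WT and below -2 in CF.

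Among the 10 genes of origin loading and the helicase, 7 were called lower in each genotype: MCM2, MCM3, MCM4, MCM5, MCM6, CDC6 and GINS2. MCM2 is a subunit of the helicase that opens the DNA. Its level was 87.6 and 100 CPM in the WT libraries of day 65, and 29.5 and 37.2 CPM at birth. In CF it was 91 and 102 CPM at day 65, and 27.5 and 28.9 CPM at birth. The libraries of birth were thus well below those of day 65 in both genotypes, with no overlap. The log2 fold change of MCM2 was -1.49 (SE 0.23; edgeR adjusted p = 0.0025) in WT and -1.77 (SE 0.23; edgeR adjusted p = 0.0012) in CF.

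CDC6, which brings the helicase to the origin, had the largest fall of all members in WT. Its WT libraries had 11.9 and 14.6 CPM at day 65 and 1.75 and 1.9 CPM at birth, a 7.25-fold lower level (log2 -2.86, SE 0.39; edgeR adjusted p = 0.0014). In CF, CDC6 went from 12.5 and 19.8 CPM to 2.69 and 2.76 CPM (log2 -2.56, SE 0.38; edgeR adjusted p = 0.0021). The libraries of birth were far below those of day 65 on both sides. MCM7, another helicase subunit, was not called. It had 150 and 161 CPM at day 65 and 82.6 and 141 CPM at birth in WT, a log2 fold change of -0.48 (SE 0.33; edgeR adjusted p = 0.36). Per kilobase of exon, MCM7 had the highest level of the 54 genes at each end of the series: 62.7 CPM per kb in WT at day 65 and 45.0 at birth. CDT1 and CDC45, which act at loading and in the active helicase, were not called in this comparison either.

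The genes for the replication fork and for nucleotide supply fell as well. RRM2, the regulated subunit of ribonucleotide reductase, had 67.6 and 70.5 CPM in the WT libraries and 55.5 and 114 CPM in those of CF at day 65. At birth WT had 16.7 and 14.3 CPM of it and CF had 11 and 10.7, below every library of day 65. Its log2 fold change was -2.15 (SE 0.34; edgeR adjusted p = 0.0029) in WT and -2.97 (SE 0.36; edgeR adjusted p = 0.00089) in CF. TYMS, which makes thymidylate, fell by 1.41 in WT and 2.12 in CF on the log2 scale. RRM1, the other subunit of the reductase, had the smallest change among the called members, with log2 fold changes of -0.62 and -0.86. Its WT call (edgeR adjusted p = 0.045) was kept in 3 of 20 fits that each left out 1 library, and its CF call in 16. PCNA, the sliding clamp, and FEN1, the flap nuclease, were called in CF and not in WT, with edgeR adjusted p values in WT of 0.067 and 0.11.

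Of the S-phase regulators, the cyclin gene CCNE2 was called in both genotypes (log2 -1.59 and -1.82). The call of CCNE2 was kept in 14 of 20 fits leaving out 1 library in WT and in 17 in CF, and in neither genotype with both shared-identifier pairs summed or without the 4 libraries with genes of other organs. Its relative CCNE1 was called in neither (-0.66 and -1.57), nor was the transcription factor gene E2F1 (-2.22 and -2.03). E2F1 had 7.24 and 8.78 CPM at day 65 in WT and 2.65 and 0.773 CPM at birth, so its libraries of birth differed widely from each other. CHEK1, the checkpoint kinase of replication stress, did not follow the others in WT: it had 33.4 and 26.8 CPM at day 65 and 34.8 and 27.2 CPM at birth (log2 0.04, SE 0.29; edgeR adjusted p = 0.94). UHRF1 and HELLS, which restore chromatin behind the fork, were lower in both genotypes, UHRF1 by 4.94-fold in WT and 4.14-fold in CF.

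Of the 33 mitotic genes, 21 were lower in WT and 29 in CF. All 8 spindle genes were called in both genotypes: KIF11, KIF23, KIF20A, KIF2C, TPX2, NUSAP1, DLGAP5 and PRC1. NUSAP1, a microtubule-bundling protein of the spindle, had the smallest p of the 54 in both genotypes. It stood at 66.2 and 73.4 CPM in the WT libraries and 63.2 and 74.5 CPM in those of CF at day 65, then 18.8 and 20.9 CPM and 12.6 and 13 CPM at birth. Within each group its replicates were close, and the groups of day 65 and birth were far apart. The log2 fold change was -1.82 (SE 0.18; edgeR adjusted p = 0.00041) in WT and -2.43 (SE 0.19; edgeR adjusted p = 0.00011) in CF. TOP2A, which untangles sister chromosomes, fell by 2.35 (SE 0.35) in WT and by 2.71 (SE 0.36) in CF on the log2 scale.

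Of the 7 kinetochore and checkpoint genes, 5 were called in each genotype. CENPE, a kinetochore motor, had 27.2 and 34.4 CPM at day 65 in WT and 7.67 and 7.96 CPM at birth. The CF libraries had 21.7 and 29.9 CPM at day 65 and 2.81 and 3.6 CPM at birth. It was 3.94-fold lower in WT and 8.05-fold lower in CF. CENPA, CENPF and NDC80 also fell in both, NUF2 fell in CF (edgeR adjusted p = 0.069 in WT), and BUB1B, a kinase-like checkpoint protein, fell in WT (edgeR adjusted p = 0.17 in CF). In cytokinesis, ANLN and ECT2 fell in both genotypes and BIRC5, known as survivin, in CF (edgeR adjusted p = 0.06 in WT).

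Among the 11 mitotic kinases, cyclins and phosphatases, 5 were called in WT and 10 in CF. CCNB1, the cyclin that drives entry into mitosis, had 33.6 and 38 CPM at day 65 in WT and 12.2 and 16.9 CPM at birth. The CF libraries had 33.5 and 45.8 CPM at day 65 and 5.1 and 6.25 CPM at birth. All libraries of birth were below those of day 65, those of CF the farthest. The log2 fold change was -1.30 (SE 0.27; edgeR adjusted p = 0.012) in WT and -2.80 (SE 0.28; edgeR adjusted p = 0.00041) in CF. CDK1, its kinase partner, was called in CF (log2 -2.47, SE 0.60) and not in WT (log2 -1.17, SE 0.57; edgeR adjusted p = 0.2), where its libraries of birth had 17.6 and 4.73 CPM. CCNA2, CDC25B, AURKB and TTK were called in both genotypes.

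MKI67, which encodes the proliferation marker Ki-67, was not called in either genotype although its fold changes were among the largest (log2 -2.77, SE 1.02 in WT and -3.20, SE 1.04 in CF; edgeR adjusted p = 0.11 and 0.1). In WT its libraries had 134 and 179 CPM at day 65, then 16.3 and 148 at 80, 16.4 and 20.8 at 100, 47.2 and 11.3 at 120 and finally 39.9 and 5.97 at birth. In CF they had 82.9 and 170 CPM at day 65, then 48.4 and 38.8 at 80, 56.7 and 57.1 at 100, 16.3 and 42.2 at 120 and finally 17 and 10.5 at birth. Replicates of day 80 and birth in WT thus differed more than most ages did. MKI67 is among the longest members, with 9426 bases of exon in the deposited annotation. At WT day 80 the 27 members longer than the median of 2991 bases were lower in replicate 1 than in replicate 2 by a median of 0.66 on the log2 scale, and the 27 shorter members by 0.20. At WT birth the longer members were higher in replicate 1 by a median of 0.35 and the shorter ones lower, with a median difference of -0.23. WT day 80 replicate 1 and WT day 147 replicate 2 also had the lowest slopes of log2 count on gene length over all genes, -0.18 and -0.24. Short members went both ways. E2F1 (957 bases) had gaps of -2.32 at WT day 80 and 1.73 at WT birth, and CDK1 (1233 bases) -1.26 and 1.89, in the directions of MKI67. UBE2C, the shortest (812 bases), had 0.17 and -1.31. The part of gene length in the replicate gaps of MKI67 was not tested.

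**Figure D2:**
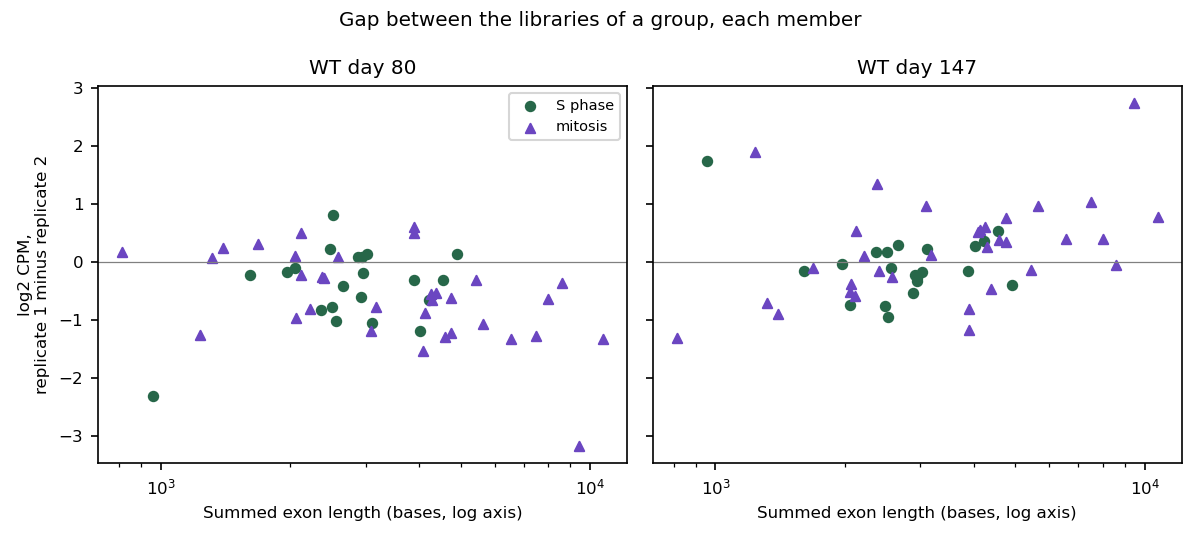
Difference in log2 CPM between replicate 1 and replicate 2 for each member (vertical axis) against its summed exon length (log axis) at WT day 80 and at WT birth; circles are S-phase and triangles mitosis members. The most distant point at long lengths is MKI67, at the bottom at day 80 and at the top at birth.

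Not every member fell. PLK1, the kinase that acts from mitotic entry to cytokinesis, had higher levels at birth. Its WT libraries had 36.7 and 34.7 CPM at day 65, then 35.8 and 41.9 at 80, 45.6 and 49.1 at 100, 42.6 and 43.8 at 120 and finally 45.6 and 68.6 at birth. In CF it had 36.1 and 41.3 CPM at day 65, then 27.6 and 31.2 at 80, 32.5 and 33.6 at 100, 44.8 and 34.6 at 120 and finally 56.2 and 54.7 at birth. In both genotypes the libraries of birth were above those of day 65. Birth against day 65 did not pass the threshold (log2 0.68, SE 0.21, edgeR adjusted p = 0.067 in WT; 0.52, SE 0.21, edgeR adjusted p = 0.21 in CF). A linear trend over the 5 ages rose in CF by 0.08 on the log2 scale per 10 days (edgeR adjusted p = 0.045) and was 0.07 in WT (edgeR adjusted p = 0.056). BUB1, a checkpoint kinase, had 33.5 and 45.3 CPM at day 65 and 42.4 and 96.3 CPM at birth in WT (log2 0.82, SE 0.35; edgeR adjusted p = 0.15). The CF libraries had 38 and 42.6 CPM at day 65 and 48.2 and 53.7 CPM at birth (log2 0.34, SE 0.35; edgeR adjusted p = 0.73). Per kilobase of exon, PLK1 came next after MCM7 among the members at birth, at 27.0 CPM per kb in WT and 26.2 in CF.

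Ages between these ends were also sampled. With a linear trend over the 5 ages, 41 members fell in WT, beside 5.59% of all genes called lower. In CF 45 fell, beside 6.11%, and PLK1 rose, beside 4.6% called higher. The 39 members called in both trends fell in both. For each library the mean deviation of log2 CPM from each gene's mean over the 20 libraries was taken over the S-phase and over the mitosis members. In WT the S-phase mean was, from the first age to birth, 0.59, 0.49, -0.01, -0.37 and -0.74. In CF it was 0.71, 0.43, 0.13, -0.31 and -0.90 at the same ages. The mitosis mean in WT was 0.78, 0.70, 0.02, -0.44 and -0.72, and in CF 0.80, 0.51, 0.23, -0.39 and -1.49. The means of both sets were lower at every successive age in both genotypes, but the first step in WT was smaller than the gap between the day 80 replicates. In CF the first step was smaller than the gap between the day 65 replicates, at 0.56 and 0.86 for S phase and 0.64 and 0.96 for mitosis. Both CF libraries of day 80 lay below both of day 65, at 0.35 and 0.50 for S phase and 0.48 and 0.54 for mitosis. WT day 80 replicate 2 alone, at 0.70 for S phase and 1.01 for mitosis, lay above the means of day 65.

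**Figure D3:**
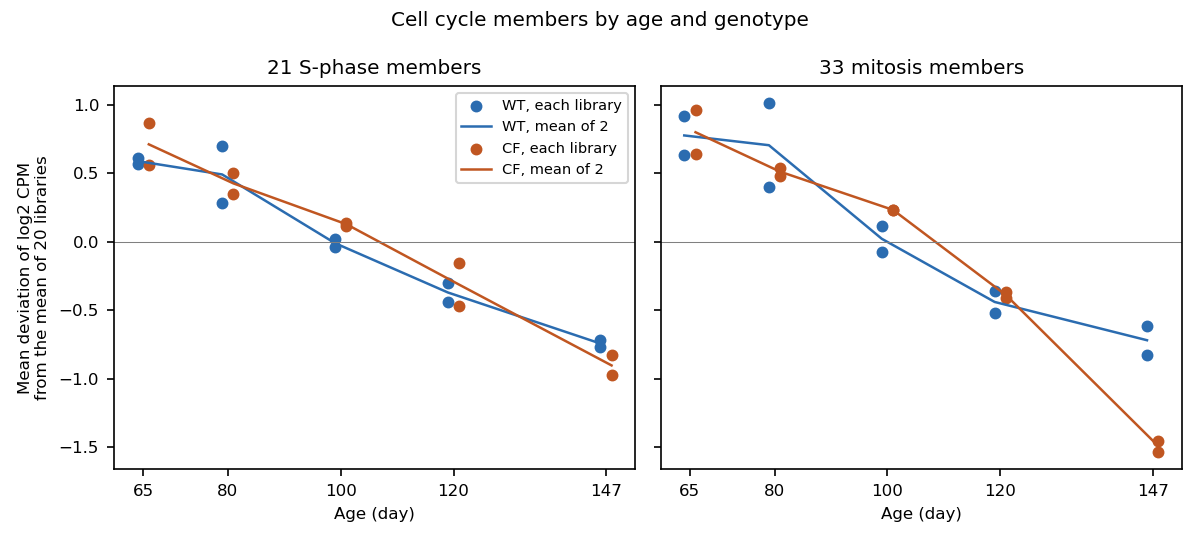
Mean deviation of log2 CPM from the mean of the 20 libraries (vertical axis) against age in days, for the 21 S-phase members (left) and the 33 mitosis members (right); points are libraries and lines join the means of 2. At birth the CF libraries sit at -1.53 and -1.45 for mitosis, below the WT libraries at -0.61 and -0.83.

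The timing was less clear than the fall itself. Taking the mean of both genotypes, no member was called between days 65 and 80, and neither was any of the 20097 genes (0%), although 7 members had an unadjusted p under 0.05 and DESeq2 called 2. Between days 80 and 100, 6 members were lower and none higher, beside 5.7% of all genes called lower: CDC25B, AURKB, CENPA, TPX2, NUSAP1 and DLGAP5, all mitotic. At this step 31 members had an unadjusted p under 0.05, 12 of the 21 S-phase and 19 of the 33 mitosis members. The smallest edgeR adjusted p of an S-phase member was 0.057. AURKB, the kinase of the chromosomal passenger complex, had 36.2 and 34.4 CPM in the WT libraries and 33.1 and 31.7 CPM in those of CF at day 80. At day 100 it had 14.2 and 12 CPM in the WT libraries and 15 and 16.8 CPM in those of CF, all well below day 80 (log2 -1.23, SE 0.28; edgeR adjusted p = 0.02). Summing both pairs that share an identifier, one of them the WT libraries of day 100, left no member called at this step, and so did leaving out the 4 libraries with genes of other organs. Leaving out 1 library at a time gave between 0 and 16 calls: 0 without either library of WT or CF day 100 or CF day 80 replicate 1, 2 without WT day 80 replicate 2, 3 without CF day 80 replicate 2 or CF day 147 replicate 2, and 16 without WT day 80 replicate 1. With the length slope of the libraries as a covariate, 28 members were lower and 2 higher.

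The levels of other cells moved with this step. The summed level of the 10 fibroblast genes was 6282 and 4463 CPM in the WT libraries of day 100, against 34811 and 22930 CPM at WT day 80 and 33092 to 38831 CPM in the CF libraries of days 80 and 100. The part of this difference in the result was not tested. Between days 100 and 120 no member was called by edgeR, beside 0.00498% of all genes called lower, while 25 had an unadjusted p under 0.05 and DESeq2 called 9. Between day 120 and birth NUSAP1 was the only member called (log2 -0.80, SE 0.13; edgeR adjusted p = 0.045), beside 0.0846% of all genes called lower. At that step 40 members had an unadjusted p under 0.05, and DESeq2 called 20. The median steps of the S-phase members were -0.17, -0.45, -0.39 and -0.57 in order of age, and those of the mitosis members -0.14, -0.56, -0.56 and -0.80. Medians over all tested genes were 0.02, -0.11, 0.07 and -0.01. These steps average the genotypes, which had different values: the median mitosis steps were -0.01, -0.76, -0.51 and -0.34 in WT and -0.28, -0.31, -0.62 and -1.16 in CF. The median S-phase steps were -0.05, -0.46, -0.37 and -0.44 in WT and -0.20, -0.35, -0.40 and -0.67 in CF. The difference in steps between the genotypes was not tested. Of the 54 members, 30 were lower at day 80 than at day 65 in WT and 45 in CF.

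In WT, 27 members had their highest group mean at day 65 and 23 at day 80, and 40 had their lowest at birth. In CF, 43 were highest at day 65 and 9 at day 80, and 50 were lowest at birth. The libraries with thymus, thyroid, liver or red blood cell genes were also the ones with the higher member levels of their groups. The mitosis mean was 1.01 in WT day 80 replicate 2 against 0.40 in replicate 1, 0.92 in WT day 65 replicate 2 against 0.63, and 0.96 in CF day 65 replicate 2 against 0.64. CF day 80 replicate 1, with skeletal muscle genes, went the other way, at 0.48 against 0.54 in replicate 2. Thymus genes summed to 709 CPM in WT day 65 replicate 2 and 537 CPM in WT day 80 replicate 2, against 15.2 to 121 CPM in the other libraries. The thyroid sum of WT day 80 replicate 2 and the liver sum of CF day 65 replicate 2, given above, were far larger. Of the 18 thymus genes tested, 10 were at 0 in at least 1 library. The part of these tissues in the member levels was not tested.

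At birth most mitosis members had lower mean levels in CF than in WT, and 1 of them passed the test. Of 54 members, 46 had a negative fold change of CF against WT at day 147, 32 of the 33 mitosis and 14 of the 21 S-phase members. The median was -0.72 for mitosis and -0.29 for S phase, with -0.06 over all tested genes. NEK2 was the one member called, beside 0.0448% of all genes called lower, and 18 members had an unadjusted p under 0.05, 17 of them mitotic. DESeq2 called 10 members, all lower in CF, and limma-voom 0. The share of all genes is not given for DESeq2 or for unadjusted p, so these counts cannot be set against it. In 34 members both CF libraries were below both WT libraries, 25 mitotic and 9 of S phase; 15.6% of all genes showed this. In 4 members, MCM5, CDC6, GINS2 and BUB1B, both CF libraries were above, as in 15.6% of all genes. The CF libraries of birth share a sample identifier, so they may not be independent. The members were also chosen with earlier results of these data known, so these counts of signs and of groups without overlap are descriptive only.

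NEK2, a kinase that parts the centrosomes before mitosis, lies on chromosome 12 at 69843139 to 69855614 in the deposited table (genome build not stated in the labels or headers). Its WT libraries had 23.2 and 30.9 CPM at day 65, then 43.6 and 30.9 at 80, 42.8 and 40.1 at 100, 16.1 and 25.4 at 120 and finally 33.3 and 23 at birth. In CF they had 36.6 and 37.9 CPM at day 65, then 20.9 and 38.9 at 80, 30.3 and 25.4 at 100, 18.6 and 16.8 at 120 and finally 6.19 and 7.22 at birth. At birth both CF libraries were lower than every other library of the series. The log2 fold change of CF against WT was -2.07 (SE 0.34; edgeR adjusted p = 0.049). In 31 alternative fits the fold change stayed between -2.29 and -1.78, but the adjusted p ran from 3.34e-06 with DESeq2 to 0.996 with only these 4 libraries in the fit, and 6 fits passed. With both shared-identifier pairs summed it was 0.93.

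CDC20, the activator of the anaphase-promoting complex, had 29.7 and 42 CPM in WT at day 65, then 69.5 and 56.3 at 80, 49.1 and 42.3 at 100, 18.7 and 44 at 120 and finally 33.2 and 35.8 at birth. In CF it had 44.1 and 51 CPM at day 65, then 39.5 and 57.6 at 80, 40.3 and 31.3 at 100, 28.5 and 19.4 at 120 and finally 4.66 and 8.14 at birth. As with NEK2, the CF libraries of birth were the lowest of all 20. The difference at birth was -2.43 on the log2 scale, a 5.39-fold lower level, and just missed the threshold (SE 0.41; edgeR adjusted p = 0.054). From day 65 to birth, CDC20 and NEK2 fell in CF by 2.89 and 2.47 on the log2 scale (edgeR adjusted p = 0.0018 and 0.0016), while in WT their fold changes were -0.06 and 0.06 (edgeR adjusted p = 0.94 and 0.92).

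**Figure D4:**
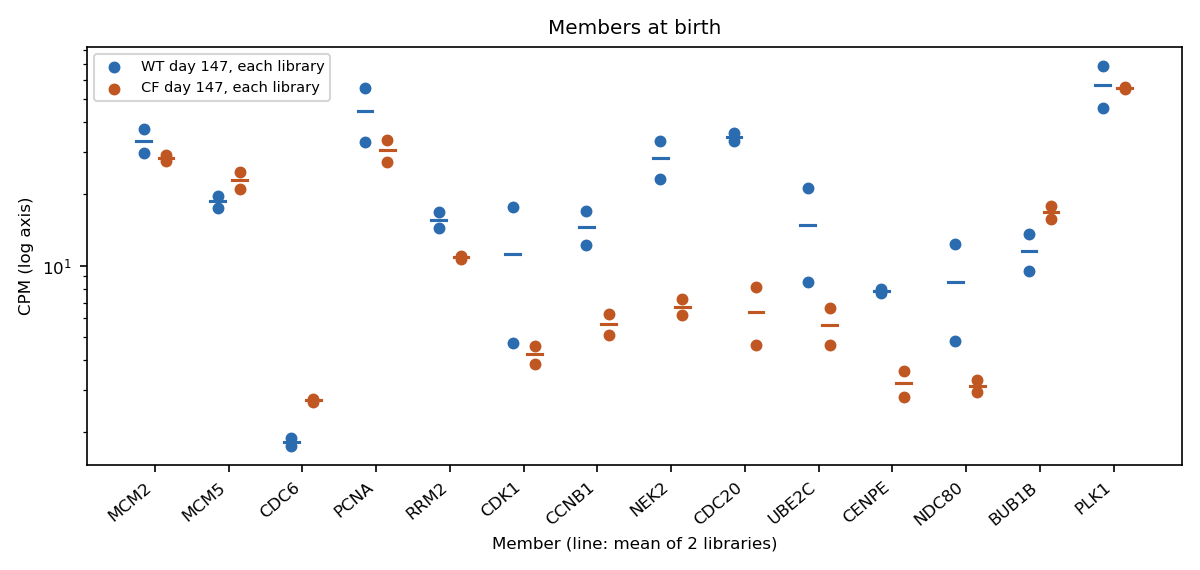
CPM at birth (log axis) of 14 members in each WT (blue) and CF (orange) library, with lines at the mean of 2; the 14 were chosen with their values known. NEK2, CDC20, CCNB1, CENPE and NDC80 lie lower in both CF libraries, CDC6, MCM5 and BUB1B lie higher, and PLK1 overlaps.

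The next members by p were CENPE and CCNB1. CENPE had 7.67 and 7.96 CPM in the WT libraries and 2.81 and 3.6 CPM in those of CF at birth (log2 -1.28, SE 0.25; edgeR adjusted p = 0.096). CCNB1 had 12.2 and 16.9 CPM in the WT libraries and 5.1 and 6.25 CPM in those of CF (log2 -1.36, SE 0.27; edgeR adjusted p = 0.096). UBE2C, the ubiquitin-conjugating enzyme of the anaphase-promoting complex, had 8.51 and 21.1 CPM in the WT libraries and 4.64 and 6.64 CPM in those of CF (log2 -1.39, SE 0.45; edgeR adjusted p = 0.37). For UBE2C the WT libraries differed from each other by more than WT replicate 1 differed from CF. AURKA (-1.28), NDC80 (-1.45), DLGAP5 (-1.28), CENPA (-1.12) and KIF2C (-1.11) were also among the mitotic members with an unadjusted p under 0.05.

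The S-phase members were closer. MCM2 had 29.5 and 37.2 CPM in the WT libraries and 27.5 and 28.9 CPM in those of CF at birth (log2 -0.24, SE 0.23; edgeR adjusted p = 0.85). For MCM5 the values were 19.7 and 17.5 CPM in the WT libraries and 21 and 24.6 CPM in those of CF, and for CDC6 1.75 and 1.9 CPM in the WT libraries and 2.69 and 2.76 CPM in those of CF. The helicase and origin genes thus lay on both sides of 0, with 6 of 10 positive and a median of 0.06. The 5 fork and nucleotide genes were all negative, from -0.54 to -0.29, and none was called. CHEK1 (-0.69, SE 0.29; edgeR adjusted p = 0.57) was the one S-phase member with an unadjusted p under 0.05.

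The S-phase mean minus the mitosis mean separated CF at birth from the rest. It was 0.56 and 0.62 in those 2 CF libraries, -0.16 and 0.11 in WT at birth, and between -0.31 and 0.21 in the other 16. Those 2 CF libraries share a sample identifier, so the separation may rest on 1 sample. The difference between CF and WT at birth was 0.61 on the log2 scale, and between 0.48 and 0.75 when 1 of the 20 libraries was left out. Leaving out 1 library cannot show whether the CF pair is 1 sample. No p is given for the difference, because the members were chosen with earlier results known. The difference between the genotypes in the change from day 65 to birth was tested gene by gene. Beside 0.00498% of all genes called, 0 members were called by edgeR, 12 had an unadjusted p under 0.05, all mitotic, DESeq2 called 3 and limma-voom 0. For CDC20 the difference was -2.84 (edgeR adjusted p = 0.34) and for NEK2 -2.53 (edgeR adjusted p = 0.29), and 32 of 33 mitosis members were negative with a median of -0.77.

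CF and WT were compared at the earlier ages in the same way. No member was called by edgeR in CF against WT at day 65, 80, 100 or 120, beside 0.00995%, 0%, 1.46% and 0% of all genes, nor over the mean of ages, beside 0.766%. Members with an unadjusted p under 0.05 numbered 0, 1, 7 and 0 at these ages and 7 over the mean of ages; DESeq2 called 1 at day 80 and 3 over the mean of ages. At day 100, 24 members were higher in both CF libraries and 14 lower, beside 40.5% and 30% of all genes. With only the 4 libraries of day 100 in the fit, 16 members were called, 11 higher and 5 lower, and the WT libraries of that age share an identifier. The share of all genes called in that fit is not given, so the 16 calls cannot be taken as particular to the members. At day 65, 10 members were higher in both CF libraries and 4 lower, beside 23.8% and 23.7%. At day 80 the signs were as uneven as at birth, with 46 of the 54 members and 32 of the 33 mitosis members negative. The values were smaller, with medians of -0.25 for mitosis and -0.04 for S phase. The mitosis mean was 0.40 and 1.01 in the WT libraries of day 80 and 0.48 and 0.54 in those of CF. Both CF libraries thus lay between the WT libraries, the higher of which had thymus and thyroid genes. The S-phase mean had the same order, with 0.28 and 0.70 in WT and 0.35 and 0.50 in CF. The counts without overlap at day 80 were 2 higher and 10 lower, beside 11.5% and 10.8%, and at day 120 they were 6 and 1, beside 8.91% and 7.61%.

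Genes of multiciliated cell formation were also compared at birth. Of 11 such genes, 10 had a negative fold change of CF against WT, with a median of -1.93. None was called, and 7 had an unadjusted p under 0.05. In 7 both CF libraries were below both WT libraries, as in 15.6% of all genes: MCIDAS, CCNO, FOXN4, CDC20B, PLK4, STIL and CCNA1. CDC20B, a relative of CDC20 used in centriole release, had 133 and 98.8 CPM in the WT libraries and 11 and 11.1 CPM in those of CF (log2 -3.39, SE 0.61; edgeR adjusted p = 0.055). PLK4, the kinase that starts centriole assembly in dividing and in multiciliated cells, had 66.3 and 31.5 CPM in the WT libraries and 12.4 and 13.2 CPM in those of CF (log2 -1.93, SE 0.33; edgeR adjusted p = 0.055). MCIDAS had 51.5 and 43.6 CPM in the WT libraries and 6.72 and 6.41 CPM in those of CF (log2 -2.86, SE 0.68; edgeR adjusted p = 0.18). For CDC20B and MCIDAS both WT libraries were several times above both CF libraries. Of these 11 genes, 4 were lower in both CF libraries at day 100 and 5 at day 120, beside 30% and 7.61% of all genes. The count at day 100 was thus near the share of all genes. At day 65, 7 were higher in both CF libraries, beside 23.8% of all genes.

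From day 65 to birth in CF, CDC20B, PLK4 and STIL fell (log2 -2.89, -2.21 and -2.16, with edgeR adjusted p = 0.012, 0.0022 and 0.011), beside 3.71% of all genes called lower. In WT none of the 11 was called. FOXJ1, which drives motile cilia in cells already committed, overlapped at birth, with 319 and 842 CPM in the WT libraries and 332 and 360 CPM in those of CF. GMNC, an early regulator, also overlapped, with 6.71 and 1.92 CPM in the WT libraries and 7.19 and 4.77 CPM in those of CF. The part of multiciliated cells in the lower mitotic level was not tested.

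**Figure D5:**
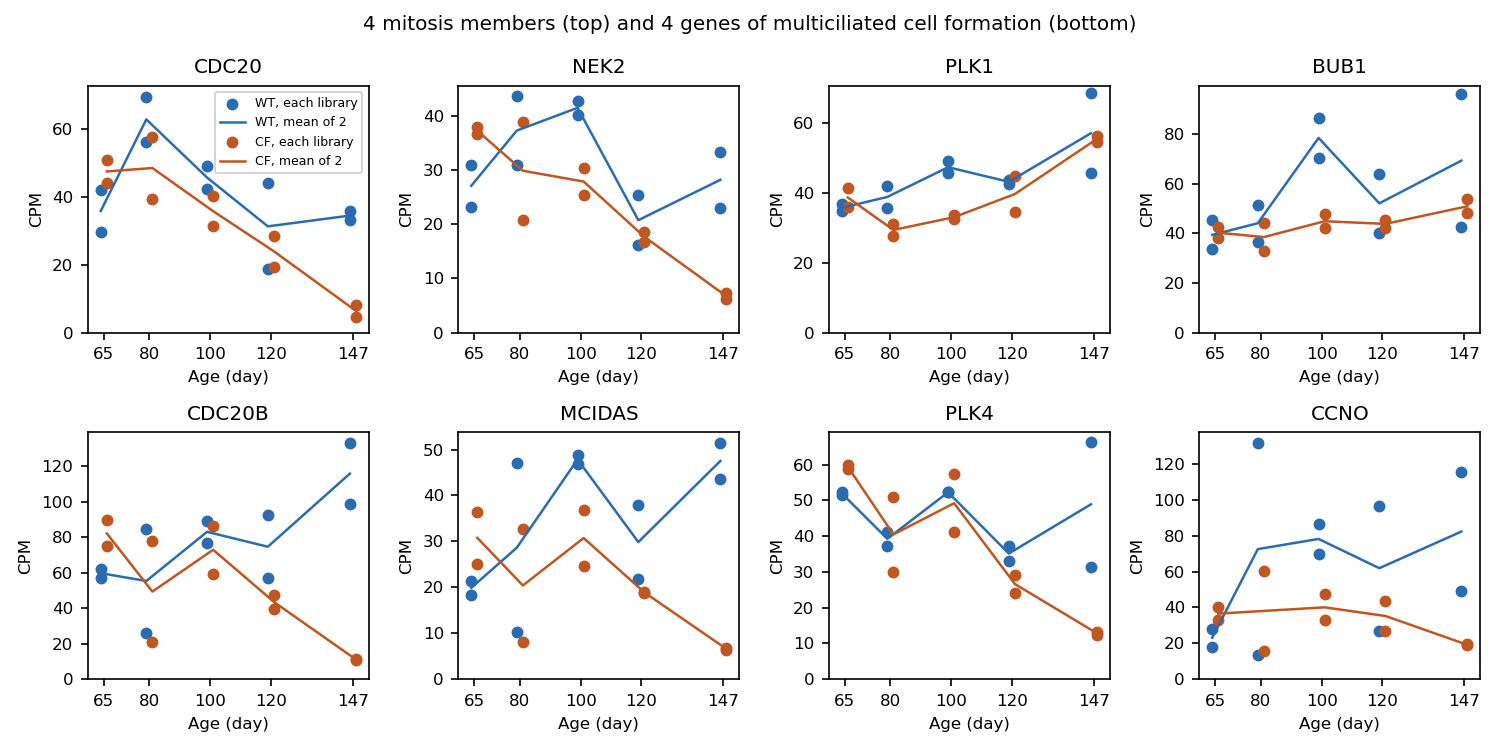
CPM against age in days for the mitosis members CDC20, NEK2, PLK1 and BUB1 (top) and for CDC20B, MCIDAS, PLK4 and CCNO of multiciliated cell formation (bottom); points are libraries and lines join the means of 2. In CF at birth (orange, right end) CDC20, NEK2, CDC20B, MCIDAS and PLK4 are at their lowest, while PLK1 and BUB1 are not.

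Other cell types at birth were as follows. Summed basal cell genes were 1618 and 3936 in WT and 4206 and 4280 in CF, in CPM, and epithelial genes 2089 and 5325 in WT and 3614 and 3592 in CF. Summed fibroblast genes were 26826 and 17441 in WT and 15227 and 11019 in CF, lower in both CF libraries. Summed fat cell genes were 5151 and 210 in WT and 222 and 2510 in CF. Summed endothelial genes were 571 and 176 in WT and 247 and 650 in CF. For both of these the replicates of each genotype differed widely. Of the fat cell genes, LPL, PLIN4 and LEP were at 0 in some library. None of the 9 basal cell, 12 epithelial and 10 fibroblast genes was at 0 in any library. The part of these cells in the difference at birth was not tested.

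Genes of the pathway outside the 54 also fell with age. Of 27 further replication genes, 9 were lower at birth than at day 65 in each genotype and none was higher (medians -0.83 in WT and -1.09 in CF). Over all genes tested, 4.53% were called lower in WT and 3.71% in CF. Of 33 further mitotic genes, 21 were lower in WT and 24 in CF, and none was higher (medians -1.41 and -1.99). Against WT at birth, 32 of these 33 were negative in CF with a median of -0.58, and none was called. In 18 of them both CF libraries were below both WT libraries, as in 15.6% of all genes. The exception was NCAPD2, a condensin subunit, singled out after its values were seen. It had 60.9 and 49 CPM in the WT libraries and 130 and 108 CPM in those of CF (log2 1.12, SE 0.22, edgeR adjusted p = 0.096). NCAPD2 was also higher in both CF libraries at days 65, 100 and 120, though not at day 80, so this was not particular to birth. These further lists were also chosen with earlier results of these data known. They were read in the same libraries as the 54, with the CF pair of birth sharing an identifier. Their signs are thus not independent of those of the members.

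Among 14 transcription regulators of the cycle, 3 fell in WT and 5 in CF, beside 4.53% and 3.71% of all genes called lower. E2F8, a repressor that is itself an E2F target, fell by 2.52 on the log2 scale in WT and fell in CF too (edgeR adjusted p = 0.0074 and 0.0031). MYBL2, the activator of the MuvB complex, fell by 1.66 and 1.73 (edgeR adjusted p = 0.0077 and 0.006), and RBL1, a pocket protein, by 2.08 and 1.62. FOXM1 fell in CF (log2 -2.62, edgeR adjusted p = 0.032) and had -2.09 in WT (edgeR adjusted p = 0.058), and E2F7 fell in CF (log2 -2.10, edgeR adjusted p = 0.049) with -0.41 in WT. At birth, MYBL2 had 17 and 13.7 CPM in the WT libraries and 16.6 and 15 CPM in those of CF, so these libraries overlapped. FOXM1 had 5.31 and 3.03 CPM in the WT libraries and 2.51 and 2.54 CPM in those of CF, lower in both CF libraries (log2 -0.72, SE 0.61; edgeR adjusted p = 0.84), as were E2F2, E2F7 and E2F8. Over all genes, 15.6% were lower in both CF libraries at birth. None of the 14 was called at birth.

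Of 6 G1 cyclin and kinase genes, CCND1, CDK2 and CDK6 fell in both genotypes, beside 4.53% of all genes called lower in WT and 3.71% in CF. CDK6, a partner of the D cyclins, went from 101 and 109 CPM to 37.3 and 33.1 CPM in WT (log2 -1.58, SE 0.19; edgeR adjusted p = 0.00083). In CF it went from 74.3 and 83.5 CPM to 35.3 and 27.7 CPM (log2 -1.32, SE 0.19; edgeR adjusted p = 0.0018). Of 9 inhibitors and quiescence genes, CCNG2 fell in WT, CDKN2C fell in CF and BTG2 rose in CF, where 1.78% of all genes were called higher. BTG2, an antiproliferative gene, had 49 and 60.8 CPM in the CF libraries of day 65 and 468 and 342 CPM in those of birth (log2 2.88, SE 0.48; edgeR adjusted p = 0.0038). In WT it had 58.1 and 51.7 CPM at day 65 and 76.9 and 237 CPM at birth (log2 1.52, SE 0.46; edgeR adjusted p = 0.058). Both CF libraries of birth were above both WT libraries, and CF against WT was not called (log2 1.36, SE 0.45; edgeR adjusted p = 0.39). The CDK inhibitor genes CDKN1A, CDKN1B and CDKN1C were called in neither genotype. CCND2 was called in neither genotype as well, with -1.60 in WT and -0.98 in CF.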

How the data were processed

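RNA of 20 tracheal samples was sequenced. The deposited tables hold counts per gene, which the authors made with STAR 2.6 and featureCounts 1.6.3 (Subread), per the submitters' processing notes; genome build, annotation, strand setting and library kit are not stated in the labels or file headers. Of low counts (1 to 20), 70.7% to 85.3% per library were even, so a read pair may have been counted as 2 and whole numbers overstate the independent molecules. All columns of per-sample counts were mapped to samples by name. Genes with low counts were removed with filterByExpr over the 10 groups, counts were scaled with TMM, and 1 coefficient per group was fitted to all 20 samples with edgeR 4.0.16 (robust quasi-likelihood, R 4.3.3). P-values were adjusted by Benjamini-Hochberg over all 20097 genes, threshold 0.05; log2 CPM used a prior count of 2. The procedure was tested on simulated data. DESeq2 1.42.0 and limma 3.58.1 (voom), other scalings and other sets of libraries were alternatives. Shares of all genes are given for the main edgeR test and for groups without overlap. Counts by unadjusted p and counts under the alternatives stand without such a share. The members and all gene lists were chosen with earlier results of these data known. Named genes were a set of well-known members, the members with the most extreme fold changes, the called genes of the other lists, and the genes of multiciliated cell formation, of which those not called were named after their values were seen. Some further members were named to account for the list. Sequences and genome features were not analysed here.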

Additional observations from a re-analysis of the deposited data

Results flagged for a closer look

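For 20 of the 54 members CF against WT at birth went one way in both libraries, and at an earlier age the opposite way in both. The size given is the log2 fold change at birth minus that at the earlier age, and the difference was not tested unless stated. Against day 100 it was -1.22 for TOP2A, -1.75 for CDK1, -0.99 for CDC25B, -1.19 for RRM2, -1.16 for CENPF, -1.66 for NDC80, -1.06 for TTK, -1.01 for KIF11, -1.06 for KIF23, -0.64 for TPX2, -1.61 for DLGAP5 and -1.44 for ANLN, all lower in CF at birth and higher in CF at day 100, where both WT libraries share an identifier. Against day 120 it was -1.04 for CCNE1, -1.36 for CENPE, -0.45 for HELLS, -0.56 for TPX2 and -1.63 for DLGAP5, and against day 80 it was -0.82 for TYMS. Against day 65 it was -2.84 for CDC20, -2.53 for NEK2, -1.08 for CDT1 and -0.73 for FEN1; for these the difference is the one tested between the developments, and edgeR's quasi-likelihood test gave adjusted p values of 0.34, 0.29, 0.91 and 0.91.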

How the results depend on the processing

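Counts of members called under other settings are given where they differ by more than 1.5 times. Where no cause is evident from the setting, the cause was not tested. Shares of all genes called under these settings are not given, so the counts show only how the number of called members moved. For CF against WT at birth (1 called), 0 were called with RLE size factors, no filter, the replicate block, limma-voom, only the 4 libraries in the fit, both shared-identifier pairs summed, or without the 4 libraries of other tissues. DESeq2 called 10, the length slope as a covariate 8, and 2 were called without the 5 libraries of lowest length slope (both length settings were added after seeing the data); leaving out 1 library gave 0 to 2. For day 100 against day 80 (6 called), library size alone gave 3, DESeq2 18, limma-voom 10, only these groups 1, pairs summed 0, without the 4 libraries 0, the length covariate 30, without the 5 libraries 26, and leaving out 1 library 0 to 16. For day 147 against day 120 (1), library size alone gave 2, no filter, the block, limma-voom, only these groups, pairs summed, without the 4 and without the 5 libraries 0, DESeq2 20, the length covariate 24, and leaving out 1 library 0 to 7. For day 120 against day 100 (0), DESeq2 gave 9, the length covariate 7, and leaving out 1 library 0 to 1. With 0 in the main setting, DESeq2 gave 2 for day 80 against day 65, 3 for the difference of development, 1 for CF against WT at day 80 (3 without the 5 libraries) and 3 over the mean of ages (1 with the length covariate, 0 to 1 leaving out 1 library). For CF against WT at day 100, only its groups gave 16. Birth against day 65 in WT (34) gave 0 with only its groups, which leaves 2 residual degrees of freedom, and 22 to 37 leaving out 1 library, 22 without WT day 65 replicate 2 or WT day 147 replicate 2; the WT trend (41) gave 27 with only its groups. Birth against day 65 in CF (44) gave 15 with pairs summed. Single genes that changed sign, none of them called: in WT development NEK2 (-0.25 with library size alone, -0.10 with the length covariate, -0.24 to 0.32 leaving out 1 library), CHEK1 (-0.27 with library size alone, -0.11 without the 4 libraries, -0.15 to 0.24 leaving out 1) and CDC20 (0.21 without the 4 libraries, -0.29 to 0.21 leaving out 1). At birth these were PLK1 (0.10 with library size alone, 0.025 with the length covariate, 0.31 without the 5 libraries, -0.30 to 0.30 leaving out 1), E2F1 (-0.038 without the 5 libraries, -0.045 to 1.71 leaving out 1), BUB1 (0.29 without the 5 libraries, -0.92 to 0.29 leaving out 1), MKI67 (-1.52 to 1.21 leaving out 1) and ECT2 (-0.39 to 0.14 leaving out 1); at birth these ends came without WT day 147 replicate 1 or 2. Library size alone shifted the median of all genes from -0.02 to -0.36 in WT development and from -0.01 to -0.23 in CF development.

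Replicate numbers did not pair the samples: over 45 pairs of groups, deviations of replicate 1 correlated between -0.59 and 0.73, with a median of 0.02. With the replicate block, 33 members were called in WT development and 43 in CF development, and NEK2 at birth had an edgeR adjusted p of 0.083. With 2 samples per group, small differences were not detectable.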
